A study of Mus musculus with 24 samples.

Results

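The comparison described here sets the intestine of mice that lack Amacr against that of wild-type mice in segment 1 of the 4 equal segments into which each intestine was cut. It takes in 6 of the 24 arrays of the series, chosen by their labels: 3 arrays labelled Amacr-/- and 3 labelled wild-type, each a separate biological replicate of segment 1. All mice were C57BL/6 males aged 3 to 3.5 months, and no treatment or diet is named. The allele of the knockout, and the part of the gene removed, are not given in the sources used here. Besides Amacr itself, 16 genes differed between the genotypes, 5 of them higher and 11 lower in Amacr-/- arrays. Among the lower ones were the phosphate transporter Slc34a2 and the transcription factor Bach2, and the largest rise past the threshold was that of Gclc. In 19 alternative settings of the fit these were called 7, 9 and 10 times. The lower Zfr was called in 18 and the higher Anxa7 in 15. Most of these calls depended on which arrays entered the fit, and 3 of the 6 arrays stood apart in genes of the pancreas or the stomach lining. Those high in pancreas genes were also the highest of their genotype in markers of Paneth cells and of dividing cells.

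AMACR, alpha-methylacyl-CoA racemase, turns the R form of branched-chain fatty acids and of bile acid intermediates into the S form, the only form that peroxisomal oxidation accepts. Without it the shortening of the sterol side chain stalls and mature bile acids become scarce, while bile acid intermediates with the uncut side chain accumulate. Bile acids are made in the liver, but the intestine meets them from the inside of the gut, where they form the micelles from which cholesterol and fat are taken up, and the first stretch of the intestine receives them together with pancreatic juice and stomach contents.

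The values are log2 signals of 15267 genes on one-colour arrays. The lining had been scraped off and is labelled endothelial. Defining epithelial genes stood near the top of the range: Epcam, an adhesion protein of epithelia, had a mean of 13.38 ± 0.07 in Amacr-/- and 13.41 ± 0.08 in wild-type arrays (log2, SD, n = 3 each), and the microvillus protein Vil1 of 13.36 ± 0.11 and 13.39 ± 0.03. Of the defining genes of vessel endothelium, Kdr was measured at 6.69 ± 0.13 in Amacr-/- and 6.65 ± 0.04 in wild-type arrays, Pecam1 at 5.21 ± 0.21 and 5.10 ± 0.32, and Cdh5 at 4.59 ± 0.03 and 4.46 ± 0.10. Levels of different probe sets are not on 1 scale, so these values show that epithelial RNA was present and do not give the share of either cell type. The labels do not say at which end segment 1 lies. In wild-type arrays the iron exporter Slc40a1 averaged 11.22 ± 0.46 in segment 1 and 7.08 ± 0.78 in segment 2, and the ileal bile acid carrier Fabp6 averaged 4.52 ± 1.01 in segment 1 and 14.49 ± 0.17 in segment 4. Within a genotype, arrays of segment 1 correlated at 0.9875 to 0.9945 over genes, which are not independent replicates. The number of arrays, 3 per genotype, limits the precision of every value.

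RNA of the exocrine pancreas was looked for in single arrays first. Of 36 marker genes 26 were measured, and their mean log2 level was 6.15, 6.24 and 6.86 in Amacr-/- replicates 1 to 3, against 7.55, 6.17 and 6.10 in wild-type replicates 1 to 3. In the 18 arrays of segments 2 to 4 the same mean lay between 5.69 and 6.14. Wild-type replicate 1 was thus the highest array of the series for this list and Amacr-/- replicate 3 the next. Cpb1, a carboxypeptidase secreted by acinar cells, stood at 4.22, 4.51 and 7.15 in Amacr-/- arrays and at 9.08, 4.37 and 4.25 in wild-type arrays, with 4.00 to 4.67 in the 18 other arrays. Ctrb1, a chymotrypsinogen, was measured at 5.98, 5.89 and 8.02 in Amacr-/- and 9.54, 6.07 and 5.57 in wild-type arrays. Cela2a, an elastase, repeated the order with 5.04, 5.21 and 7.13 in Amacr-/- and 8.75, 5.45 and 5.35 in wild-type arrays. In each case 1 array of either genotype was high and the other 4 were alike, so the genotypes overlapped. Over the list 5 markers were higher and 21 lower in Amacr-/- arrays, with a median difference of -0.14, and without wild-type replicate 1 the median was 0.23. None of the 26 markers passed the adjusted threshold (limma), and 2 had an unadjusted p under 0.05, against 11.4% of all genes.

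The whole marker list did not move as 1 block. In wild-type replicate 1, 14 of the 26 markers lay more than 1 log2 above the mean of the other wild-type arrays, 9 of them more than 2, and 10 lay within 0.5. In Amacr-/- replicate 3, 7 markers lay more than 1 log2 above the other Amacr-/- arrays, and all 3 that exceeded 2 log2 (Cpb1, Ctrb1 and Cela2a) exceeded it in wild-type replicate 1 too. Wild-type replicate 1 was the highest of the 6 arrays for 16 of the 26 markers, against 19.71% of all genes, and in 14 of them Amacr-/- replicate 3 came next. The acinar transcription factors Ptf1a, Bhlha15 and Rbpjl stayed between 4.17 and 5.58 in all 6 arrays. Spink1, a trypsin inhibitor, and Reg1, a secreted lectin, are both made by the intestinal lining as well, and they lay between 13.29 and 13.72 in all 6 arrays.

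A different array stood apart in genes of the stomach lining. Gkn1, a protein secreted by surface cells of the stomach, was measured at 4.94, 8.71 and 4.69 in Amacr-/- replicates 1 to 3 and at 5.15, 4.89 and 4.95 in wild-type arrays. Its relative Gkn2 stood at 5.80, 9.98 and 6.02 in Amacr-/- and 6.38, 5.85 and 6.10 in wild-type arrays. Anxa10, an annexin of the same surface cells, stood at 3.99, 8.71 and 4.61 in Amacr-/- and 5.17, 4.00 and 4.29 in wild-type arrays. Amacr-/- replicate 2 alone was high for each of them, and none of the 18 arrays of segments 2 to 4 exceeded 5.15 for Gkn1, 6.44 for Gkn2 or 4.41 for Anxa10. Of 14 measured stomach markers 4 lay more than 2 log2 above the other Amacr-/- arrays there, the fourth being the protease Ctse, and 10 lay within 0.5. The genes of acid secretion and of chief cells were not among the high ones: Atp4a, a subunit of the proton pump, stood at 5.47, 5.33 and 4.87 in Amacr-/- and 5.22, 5.29 and 5.01 in wild-type arrays, and Pgc, a pepsinogen, did not exceed 6.37 in the 6 arrays.

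The same array was the highest for some genes of the most proximal intestine. Trpv6, the calcium channel of the brush border, was measured at 5.88, 10.67 and 7.11 in Amacr-/- and 6.92, 6.03 and 7.09 in wild-type arrays. Cybrd1, the reductase that readies dietary iron for uptake, stood at 4.90, 8.35 and 5.86 in Amacr-/- and 5.45, 5.06 and 5.17 in wild-type arrays. S100g, the calcium buffer calbindin of enterocytes, stood at 10.15, 14.14 and 12.71 in Amacr-/- and 13.40, 12.67 and 12.94 in wild-type arrays. Amacr-/- replicates 2 and 1 held the highest and the lowest value of S100g, with every wild-type array between them. Slc40a1 had the same order, at 9.45, 12.44 and 11.11 in Amacr-/- and 11.72, 10.83 and 11.10 in wild-type arrays. Over the 21 measured genes of this list, Amacr-/- replicate 2 was highest for 8 and Amacr-/- replicate 1 lowest for 8, against 19.2% and 17.01% of all genes. In Amacr-/- replicate 2, 13 of the 21 lay within 0.5 of the other Amacr-/- arrays, and some were low: Car4, a carbonic anhydrase of the brush border, stood at 10.09, 8.95 and 10.02 in Amacr-/- and 10.81, 10.41 and 10.28 in wild-type arrays. Gata4, a transcription factor of the proximal intestine, stood at 8.13, 7.94 and 7.93 in Amacr-/- and 8.21, 8.03 and 8.09 in wild-type arrays. The genotype differences of Trpv6, Cybrd1 and S100g were 1.21 (SE 0.69), 1.14 (SE 0.50) and -0.67 (SE 1.05), none past the threshold. Without Amacr-/- replicate 2 they were -0.18, 0.15 and -1.57.

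**Figure D1:**
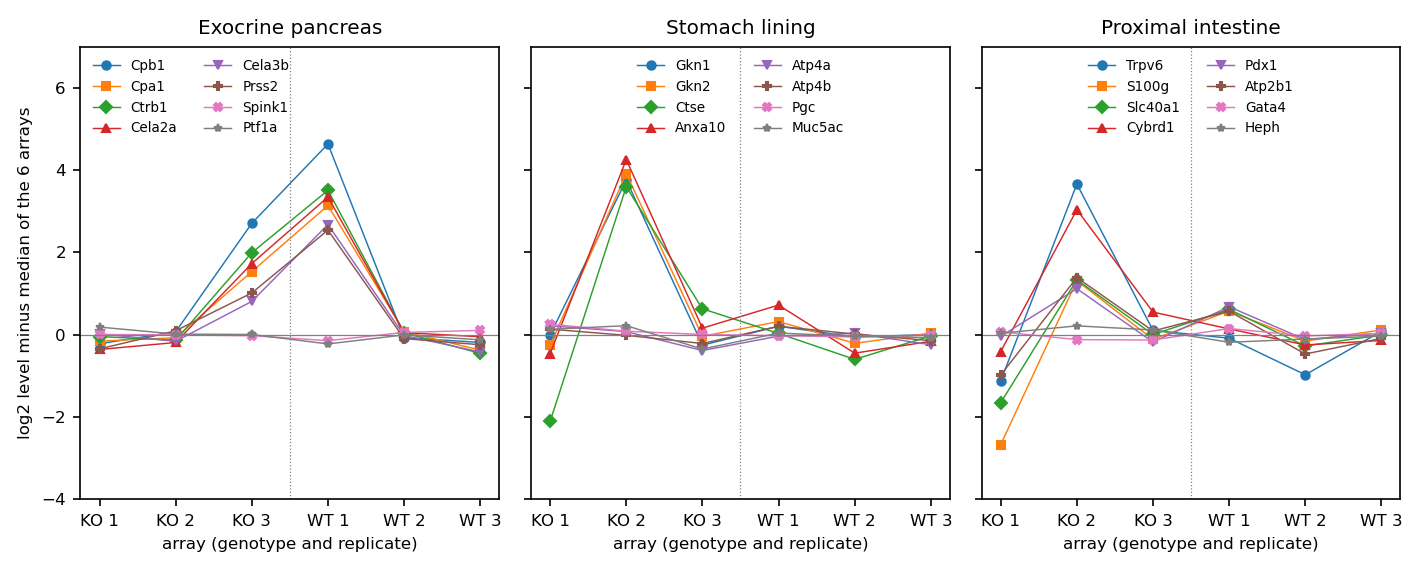
Log2 level of single genes minus the median of the 6 arrays of segment 1, for Amacr-/- (KO) replicates 1 to 3 and wild-type (WT) replicates 1 to 3, in markers of the exocrine pancreas, the stomach lining and the proximal intestine. Pancreatic enzymes peak in KO 3 and WT 1 and the stomach genes in KO 2, while Spink1, Ptf1a and the acid genes Atp4a and Atp4b lie near 0 in all arrays.

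Counted over all genes, wild-type replicate 1 departed from its own group most often, with 86 genes more than 1 log2 above and 82 more than 1 below the mean of the other wild-type arrays. Wild-type replicate 2 had 21 above and 23 below, and wild-type replicate 3 had 49 and 63. Amacr-/- replicates 1, 2 and 3 had 28, 62 and 39 above and 63, 18 and 21 below. Arrays not high in these markers thus departed from their groups too. The arrays high in pancreas markers were also the highest of their genotype in other lists. The mean of the 4 measured Paneth cell markers was 6.72, 7.01 and 8.115 in Amacr-/- and 7.99, 7.575 and 7.262 in wild-type replicates 1 to 3. For dividing cells the mean was 5.485, 5.618 and 6.077 in Amacr-/- and 6.627, 6.15 and 5.613 in wild-type replicates. The 3' to 5' difference of the actin control, a sign of RNA integrity, was 0.53, 1.02 and 0.71 in Amacr-/- replicates 1 to 3 and 0.61, 0.62 and 0.83 in wild-type replicates, so the array high in stomach genes had the largest. For the Gapdh control the same difference was small in every array, at -0.07, 0.07 and 0.04 in Amacr-/- and 0.01, -0.02 and -0.01 in wild-type replicates. In scraped tissue, fewer cells of a type and less RNA per cell cannot be told apart.

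Amacr was measured at 5.32, 5.56 and 5.13 in Amacr-/- arrays and at 8.08, 8.43 and 8.75 in wild-type arrays. Every Amacr-/- array lay below every wild-type array, and the difference was -3.08 (SE 0.19, adjusted p = 1.26e-08), a signal 8.48-fold lower. It checks the labels only as far as the probes lie in the deleted part, which is not given. Over all 15267 genes 17 passed the adjusted threshold of 0.05 in segment 1, or 0.111%. In segments 2, 3 and 4 the same comparison called 0.0721%, 0.0262% and 0.0655% of the genes.

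Besides Amacr, 2 of the called genes lie close to it on chromosome 15. In the order of measured genes Sub1 is the fifth and Zfr the sixth on the same side of Amacr. Zfr, an RNA-binding zinc finger protein, stood at 7.07, 7.18 and 7.14 in Amacr-/- and 7.81, 8.01 and 7.97 in wild-type arrays, a difference of -0.80 (SE 0.09, adjusted p = 0.000257). Sub1, a coactivator of transcription, stood at 6.52, 6.24 and 6.40 in Amacr-/- and 6.87, 6.94 and 6.71 in wild-type arrays, a difference of -0.45 (SE 0.08, adjusted p = 0.0299). In both genes the Amacr-/- arrays were all below the wild-type ones. Of the other 9 genes among the nearest 5 on either side, none passed (limma), and the largest difference was that of Dnajc21, -0.48 (SE 0.13, adjusted p = 0.170), a chaperone partner, while the genes next to Amacr, C1qtnf3 and Slc45a2, differed by 0.02 (SE 0.09) and 0.07 (SE 0.11).

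Of all genes 0.0328% were called higher in Amacr-/- arrays, which is 5 genes. Gclc encodes the catalytic subunit of glutamate-cysteine ligase, the enzyme that limits glutathione synthesis. It stood at 9.37, 9.93 and 9.78 in Amacr-/- and 8.19, 8.57 and 8.96 in wild-type arrays, and was 2.17-fold higher in the knockout (difference 1.12, SE 0.20, adjusted p = 0.0299). Its lowest Amacr-/- array lay above the highest wild-type array by less than the range of the 3 wild-type arrays. Anxa7, a calcium-dependent membrane-binding annexin, stood at 9.43, 9.83 and 9.51 in Amacr-/- and 8.74, 8.70 and 8.98 in wild-type arrays (0.78, SE 0.11, adjusted p = 0.00388). Adam2, a surface protein best known from sperm, was measured at 4.73, 4.82 and 4.87 in Amacr-/- and 3.86, 3.95 and 3.88 in wild-type arrays (0.91, SE 0.15). These signals are close to the lowest on the arrays, 2.92, where RMA compresses differences. Rassf6, a Ras-association domain protein, stood at 9.35, 9.31 and 9.27 in Amacr-/- and 8.83, 8.77 and 8.76 in wild-type arrays (0.52, SE 0.10, adjusted p = 0.0305), with the narrowest spread of the 5. The fifth gene, D7Ertd443e, differed by 0.39 (SE 0.07).

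Called lower were 0.0786% of all genes, 12 with Amacr. Slc34a2 encodes NaPi-IIb, the sodium-phosphate cotransporter of the brush border. It stood at 7.51, 6.84 and 5.56 in Amacr-/- and 9.83, 8.66 and 9.08 in wild-type arrays, 5.87-fold lower in the knockout (-2.55, SE 0.48, adjusted p = 0.0348). The Amacr-/- arrays were far apart and their lowest was replicate 3, the highest wild-type array was replicate 1, and without these 2 arrays, which were high in pancreas genes, the difference was -1.70. The other phosphate carriers did not follow: Slc20a1 differed by 0.75 (SE 0.29, adjusted p = 0.342; 0.48 without wild-type replicate 1) and Slc20a2 by 0.20 (SE 0.17). Bach2, a repressor of transcription known from lymphocytes, stood at 6.07, 5.62 and 5.64 in Amacr-/- and 7.09, 7.23 and 6.65 in wild-type arrays (-1.21, SE 0.23, adjusted p = 0.0348). Denn2b, of the DENN family that activates Rab GTPases, stood at 7.66, 7.47 and 7.36 in Amacr-/- and 8.83, 8.55 and 8.25 in wild-type arrays (-1.05, SE 0.19, adjusted p = 0.0299). For both, the gap between the genotypes exceeded 0.5 log2.

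The remaining 6 falls were smaller, between -0.74 and -0.45, in genes with steady signals. Myo5b, the motor that carries recycling endosomes to the brush border and whose loss in humans causes microvillus inclusion disease, stood at 10.27, 9.81 and 9.94 in Amacr-/- and 10.59, 10.67 and 10.49 in wild-type arrays (-0.58, SE 0.10). Exosc9, a subunit of the RNA exosome, stood at 8.16, 7.89 and 8.11 in Amacr-/- and 8.74, 8.89 and 8.74 in wild-type arrays (-0.74, SE 0.13). Both were lower in every Amacr-/- array. Mrpl15, a protein of the large mitochondrial ribosomal subunit, stood at 8.11, 7.94 and 8.10 in Amacr-/- and 8.50, 8.57 and 8.47 in wild-type arrays (-0.46, SE 0.07, adjusted p = 0.0163). Gtpbp3, which modifies mitochondrial tRNA, differed by -0.59 (SE 0.11, adjusted p = 0.0299). Ppp1r14d, an inhibitor of protein phosphatase 1, and Akap9, an anchor of protein kinase A at centrosome and Golgi, differed by -0.63 (SE 0.12) and -0.45 (SE 0.08). In all 17 genes the 3 Amacr-/- arrays lay wholly on 1 side of the 3 wild-type arrays, while over all genes 8.02% lay wholly above and 8.67% wholly below. The unadjusted p was under 0.05 for 11.4% of all genes.

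**Figure D2:**
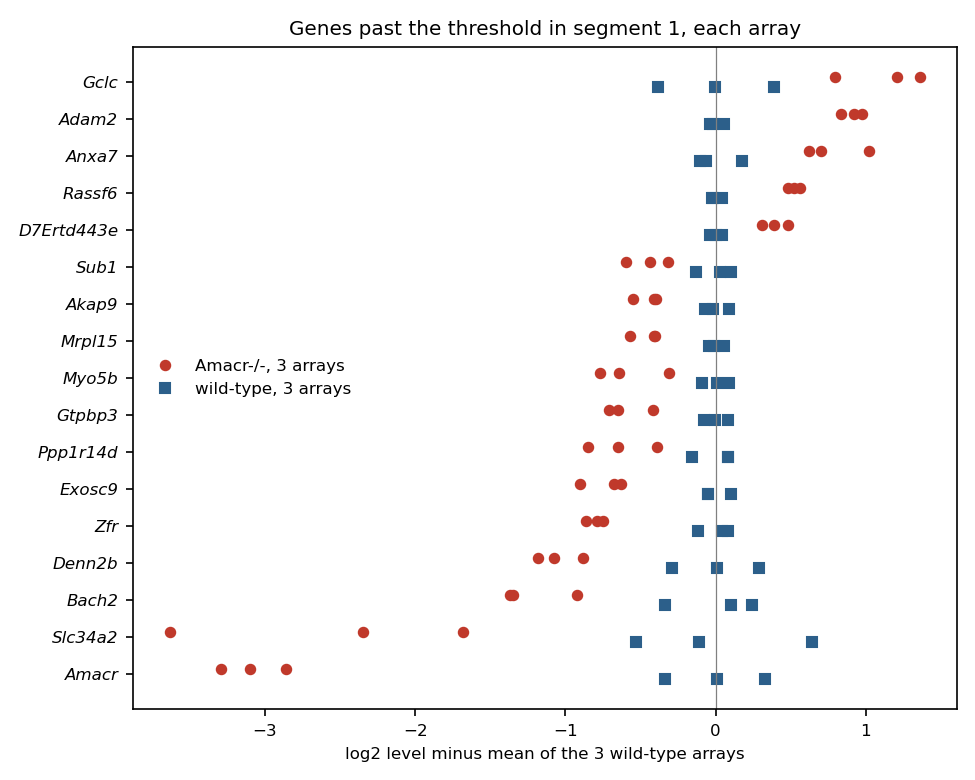
Log2 level of each array of segment 1 minus the mean of the 3 wild-type arrays, for the 17 genes past the adjusted threshold of 0.05; circles are Amacr-/- arrays and squares wild-type arrays. No gene overlaps between genotypes, Slc34a2 has the widest spread and Rassf6 the narrowest within both genotypes.

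The same genes were then followed down the intestine. The sign of the difference was the same in all 4 segments for 11 of the 17, and 5 were also called in another segment: Amacr and Zfr in 3 each, Anxa7 in 2, and Myo5b and Denn2b in 1. The numbers of the replicates may mark the same mice in each segment, which the labels do not state, so the segments may not be independent of each other. For 13 of the 17 the difference was larger in segment 1 than in each of the other segments. Slc34a2 differed by -2.55, -1.54, -0.25 and -0.34 in segments 1 to 4 (SE 0.48 each). Bach2 differed by -1.21, -0.31, 0.31 and -0.09 (SE 0.23 each), and Adam2 by 0.91, -0.02, 0.22 and -0.03 (SE 0.15 each). Whether a difference was particular to segment 1 was tested as segment 1 minus the mean of segments 2 to 4. By limma 0 genes passed this test after adjustment (0% of all genes, smallest adjusted p = 0.2515), with 10.8% of all genes at an unadjusted p under 0.05. Of the 17 genes 12 were among those, but they had been selected for a difference in segment 1, which enters the test. None of them is therefore called particular to segment 1.

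**Figure D3:**
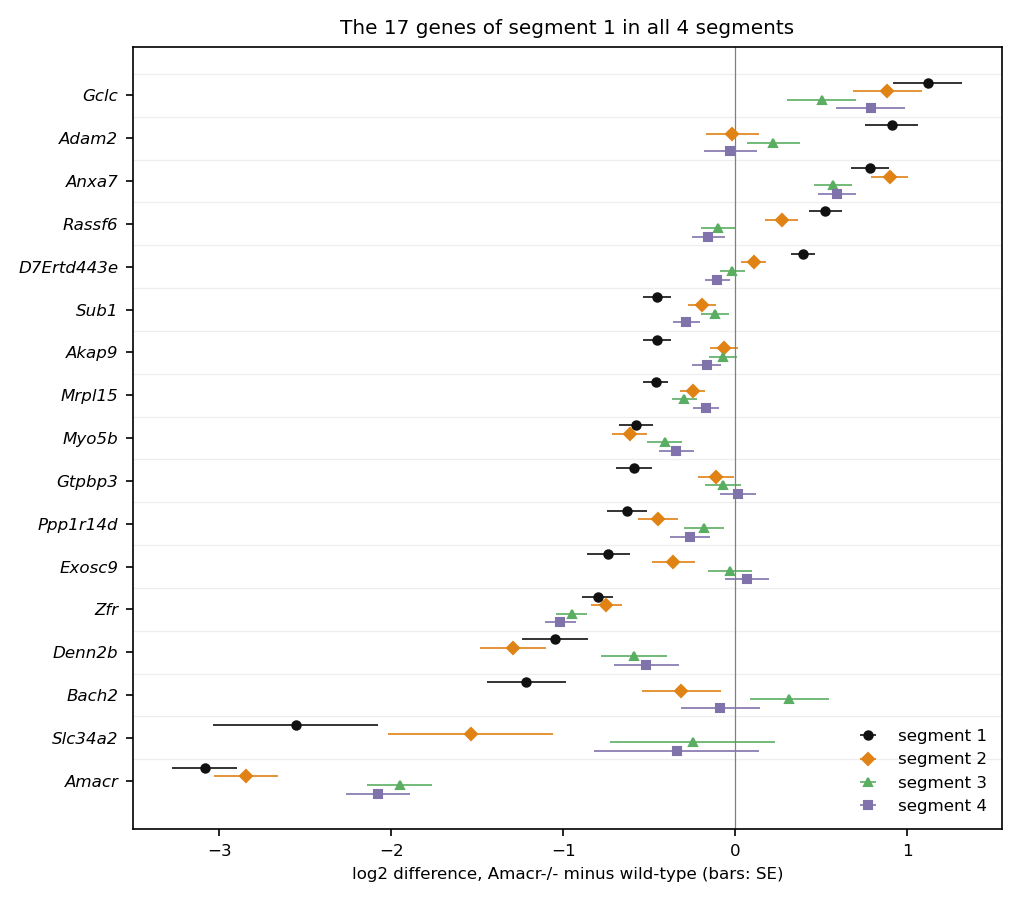
Log2 difference, Amacr-/- minus wild-type, of the 17 genes called in segment 1, in segments 1 to 4 with standard errors of the limma fit (3 arrays per genotype and segment). Amacr, Zfr, Anxa7 and Denn2b lie on the same side of 0 in all segments, while Adam2, Bach2 and Rassf6 change side between segments.

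Which of these calls held depended on the arrays. Leaving out wild-type replicate 1, 2 or 3 gave 5, 2 and 29 calls, and leaving out Amacr-/- replicate 1, 2 or 3 gave 32, 3 and 5. Without wild-type replicate 1 and Amacr-/- replicate 3, the arrays high in pancreas markers, 2 genes were called, Amacr and Zfr. With the mean of the pancreas markers as a covariate, 4 were called, all among the 17. Leaving out Amacr-/- replicate 2 as well, a setting chosen after seeing the data that leaves a single Amacr-/- array, assumed to vary like the other groups, gave Amacr and Zfr, and with the mean of the stomach markers as a covariate 3 were called. Without these 3 arrays the differences of Slc34a2, Gclc, Myo5b and Ppp1r14d were -1.36, 0.61, -0.31 and -0.35, each more than 1.5 times smaller. All 17 genes kept their sign in each of the settings tried. Leaving out the arrays high in pancreas markers also removes the array of each genotype highest in markers of Paneth cells and dividing cells. The part of pancreas and stomach RNA in these results was not tested beyond this.

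In most tissues CLOCK and its partner ARNTL switch on Per, Cry, Nr1d1, Dbp and Tef through a sequence called the E-box, DBP and TEF act on a sequence called the D-box, and NR1D1 and the ROR receptors act on an element through which Arntl and Nfil3 are set in the opposite phase. The time of day at which tissue was taken is not given. Upstream sequences (250 bases before the start of transcription, RefSeq, GRCm38.p6) are shown for a gene of each kind, 5' to 3' on the strand of the gene, with motif matches in capitals. Ciart, a clock repressor, holds the E-box (CACGTG) 3 times in chr3:95882229-95882478 on the minus strand. Per3, of the Period family, holds the D-box (TTATGTAA) 2 times in chr4:151044666-151044915 on the minus strand. Nfil3, a repressor at D-boxes, holds the ROR element core (TAGGTCA, here in the reverse orientation) 1 time in chr13:52981040-52981289 on the minus strand.
Ciart: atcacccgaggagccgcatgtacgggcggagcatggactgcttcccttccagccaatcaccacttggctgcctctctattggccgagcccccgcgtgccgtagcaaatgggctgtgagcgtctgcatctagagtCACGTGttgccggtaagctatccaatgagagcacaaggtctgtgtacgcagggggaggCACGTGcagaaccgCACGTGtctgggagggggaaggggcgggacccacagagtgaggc
Per3: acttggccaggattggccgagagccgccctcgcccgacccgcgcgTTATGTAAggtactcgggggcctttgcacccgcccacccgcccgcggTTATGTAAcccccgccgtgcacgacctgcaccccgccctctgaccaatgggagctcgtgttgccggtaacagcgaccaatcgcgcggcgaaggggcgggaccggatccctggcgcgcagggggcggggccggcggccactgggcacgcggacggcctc
Nfil3: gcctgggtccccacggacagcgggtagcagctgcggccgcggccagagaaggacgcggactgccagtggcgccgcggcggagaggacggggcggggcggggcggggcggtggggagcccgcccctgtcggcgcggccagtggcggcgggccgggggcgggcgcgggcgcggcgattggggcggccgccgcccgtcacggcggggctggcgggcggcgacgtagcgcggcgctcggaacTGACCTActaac
Both strands were searched; the E-box is its own reverse complement, and the 3 motifs share no letters where they matched here. Of the 12 measured genes in the phase of Dbp, 11 had an upstream sequence, and the E-box was found in 4 of them (Bhlhe41, Ciart, Per1 and Tef), or 5 of their 15 upstream sequences, against 6.02% of 32851 upstream sequences of all genes. The D-box was found in 1 of the 15, in 0 of 10 sequences of the opposite phase, and in 0.819% of all. The ROR core was found in 0 of the 15, in 1 of the 10, and in 2.23% of all. The E-box was found in 1 of the 10, that of Cry1, which is listed here with the opposite phase. None of the 3 motifs was found in the upstream sequences of Dbp, Nr1d1 or Arntl. A match is a description of these letters only.

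All 12 measured clock genes in the phase of Dbp were higher in Amacr-/- arrays, with a median difference of 0.68, where 52.1% of all genes were higher and the median was 0.01. Some were nearly level: Bhlhe41 stood at 5.61, 5.35 and 5.51 in Amacr-/- and 5.52, 5.38 and 5.55 in wild-type arrays. Nr1d1 differed by 0.26 (SE 0.25, adjusted p = 0.738), with overlap. For 8 of them the 3 Amacr-/- arrays lay above the 3 wild-type arrays, against 8.02% of all genes. None of the 12 passed the adjusted threshold of limma, and 9 had an unadjusted p under 0.05, against 11.4% of all genes. Dbp, a transcription factor that drives many rhythmic genes, stood at 9.56, 9.85 and 10.29 in Amacr-/- and 6.01, 6.94 and 9.15 in wild-type arrays (2.53, SE 0.63, adjusted p = 0.152). Per2, a repressor of the clock, stood at 7.37, 7.81 and 7.84 in Amacr-/- and 6.30, 6.20 and 7.12 in wild-type arrays (1.13, SE 0.27, adjusted p = 0.125). Ciart, shown above, stood at 6.20, 6.71 and 7.14 in Amacr-/- and 6.02, 6.03 and 6.05 in wild-type arrays (0.65, SE 0.21, adjusted p = 0.275). For Dbp and Per2 wild-type replicate 3 lay nearest to the Amacr-/- arrays, whereas for Ciart the 3 wild-type arrays were alike and Amacr-/- replicate 1 lay nearest to them.

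The wild-type arrays were not alike in these genes as a set. Wild-type replicate 3 was the highest wild-type array for 11 of the 12, and wild-type replicate 1 the lowest of all 6 arrays for 8. The mean of the 12 was 7.85, 8.03 and 8.20 in Amacr-/- and 6.997, 7.15 and 7.70 in wild-type replicates 1 to 3. Without wild-type replicate 3 the differences of Dbp and Per2 were called, at 3.43 and 1.42. Without both arrays high in pancreas genes Dbp differed by 1.66 and Ciart by 0.42, neither called, and the median of the 12 was 0.44. Without the 3 arrays that stood apart, which leaves a single Amacr-/- array, the median was 0.315, the lowest of the settings. Of 7 measured genes of the opposite phase 5 were lower, where 46.9% of all genes were, and 3 had no overlap (8.67% of all genes lay wholly below), with a median of -0.16. By limma 0 of these 7 passed, with 3 at an unadjusted p under 0.05, against 11.4% of all genes. Arntl, the partner of CLOCK, stood at 6.79, 6.58 and 6.73 in Amacr-/- and 8.18, 8.17 and 7.47 in wild-type arrays (-1.24, SE 0.27, adjusted p = 0.0889), and it was called without wild-type replicate 3, with a fixed replicate block and with array weights. Nfil3, also shown above, stood at 5.77, 5.78 and 5.64 in Amacr-/- and 7.52, 7.03 and 5.96 in wild-type arrays (-1.11, SE 0.49, adjusted p = 0.395). Wild-type replicate 3 was again the wild-type array nearest to the Amacr-/- ones. Over segments 1 to 4 the median of the Dbp group was 0.68, 0.65, 0.31 and 0.31, and Arntl differed by -1.24, -1.55, -0.99 and -0.81.

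**Figure D4:**
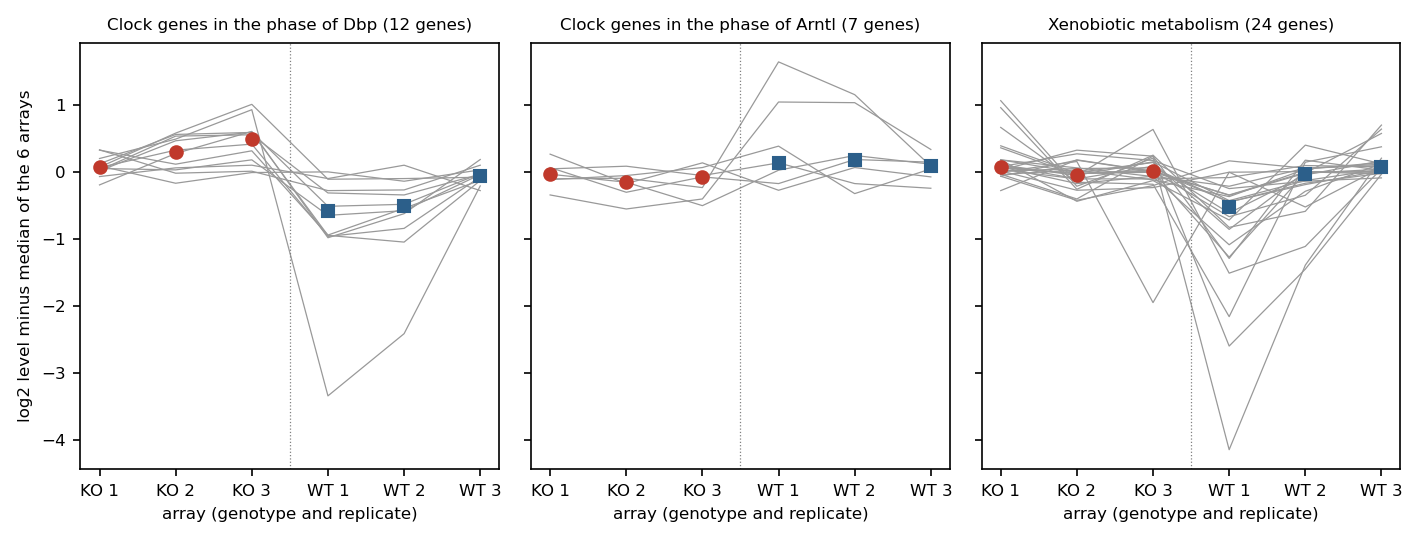
Log2 level minus the median of the 6 arrays of segment 1 for clock genes in the phase of Dbp (12), clock genes in the phase of Arntl (7) and genes of xenobiotic metabolism (24), in Amacr-/- (KO) and wild-type (WT) replicates. Each grey line is a gene and each filled symbol the median of the list in that array; WT 3 lies closest to the KO arrays for the Dbp group, and WT 1 is lowest for the xenobiotic list.

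The enzymes and pumps that handle foreign compounds were mostly higher in Amacr-/- arrays. Of 24 measured 18 were higher and 6 lower, with a median difference of 0.25; 3 lay wholly above the wild-type arrays and 1 wholly below, close to the 8.02% and 8.67% of all genes. By limma 0 passed, with 4 at an unadjusted p under 0.05, against 11.4% of all genes. Cyp2c29, a cytochrome P450 induced through the receptors CAR and PXR, stood at 11.95, 10.67 and 11.09 in Amacr-/- and 6.73, 9.49 and 11.09 in wild-type arrays (2.13, SE 0.68, adjusted p = 0.261). Ephx1, microsomal epoxide hydrolase, stood at 10.53, 10.83 and 10.74 in Amacr-/- and 7.90, 9.05 and 10.47 in wild-type arrays (1.56, SE 0.48, adjusted p = 0.240). Abcb1a, the multidrug efflux pump, differed by 1.09 (SE 0.38, adjusted p = 0.298) and by 1.20, 1.11 and 0.90 in segments 2 to 4; without both arrays high in pancreas genes it differed by 0.56. In Cyp2c29 and Ephx1 the wild-type arrays span the whole difference: replicate 3 was level with or close to the Amacr-/- arrays and replicate 1 far below them. Wild-type replicate 1 was the lowest of the 6 arrays for 20 of the 24 genes, against 18.45% of all genes. Without it the median of the list was -0.03, and Cyp2c29 and Ephx1 differed by 0.95 and 0.94. Without wild-type replicate 3 both passed, at 3.13 and 2.23. The array that was lowest here is the one highest in pancreas genes and lowest for 8 of the 12 clock genes. In segments 2 to 4 wild-type replicate 1 also had the lowest list mean of the wild-type arrays, at 10.12, 9.48 and 8.89. Its pancreas marker means there were 6.00, 5.91 and 5.69, against 7.55 in segment 1.

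Genes of antigen presentation were lower in Amacr-/- arrays. Of 12 measured genes of MHC class II presentation 10 were lower, 5 of them wholly below the wild-type arrays (8.67% of all genes), with a median of -0.95. Without Amacr-/- replicate 3 the median was -0.47, and without both arrays high in pancreas genes -0.38. By limma 0 passed, with 5 at an unadjusted p under 0.05, against 11.4% of all genes. Cd74, the invariant chain that escorts class II molecules, stood at 12.42, 12.89 and 10.97 in Amacr-/- and 13.23, 13.15 and 12.91 in wild-type arrays, with an adjusted p of 0.466. H2-DMb1, part of the complex that loads peptides, stood at 8.61, 9.41 and 6.95 in Amacr-/- and 10.30, 9.81 and 9.67 in wild-type arrays (-1.60, SE 0.70, adjusted p = 0.388). Amacr-/- replicate 3 was the lowest array in both, and without it H2-DMb1 differed by -0.92 and Cd74 by -0.44. Ciita, the coactivator that switches the class II genes on, was steadier in the knockout, at 5.57, 5.59 and 5.37 in Amacr-/- and 7.09, 6.18 and 6.23 in wild-type arrays (-0.99, SE 0.37, adjusted p = 0.334), and differed by -0.63 without both of those arrays. Of 25 measured genes of the interferon gamma response and of class I processing 23 were lower, 9 wholly below the wild-type arrays (8.67% of all genes), with a median of -0.39, or -0.18 without both arrays high in pancreas genes. By limma 0 of the 25 passed, with 2 at an unadjusted p under 0.05, against 11.4% of all genes. The list mean was 8.51, 8.63 and 8.33 in Amacr-/- and 9.41, 8.63 and 8.75 in wild-type arrays, so wild-type replicate 1 was the one far above. It was likewise 9.386, 9.403 and 9.345 in wild-type replicate 1 of segments 2 to 4. Wild-type replicates 2 and 3 of those segments lay between 8.01 and 8.79. Psmb9, a subunit of the immunoproteasome, stood at 9.70, 9.39 and 9.03 in Amacr-/- and 10.85, 10.15 and 10.03 in wild-type arrays (-0.97, SE 0.42), and differed by -0.55 without both arrays high in pancreas genes.

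Markers of immune cells were measured beside these, and not all lists were lower. Of 16 measured markers of T cells and intraepithelial lymphocytes 8 were higher and 7 lower, with a median of 0.01. The 9 measured mast cell markers were all higher, where 52.1% of all genes were, with a median of 0.14. Their mean was 4.717, 4.707 and 4.716 in Amacr-/- and 4.566, 4.484 and 4.682 in wild-type arrays, low signals where RMA compresses differences. Of the 9 markers 2 lay wholly above the wild-type arrays, against 8.02% of all genes. By limma 0 of them passed, with 1 at an unadjusted p under 0.05, close to the 11.4% of all genes. Of 16 measured markers of macrophages and dendritic cells 5 were higher and 11 lower, with a median of -0.09. By limma 0 of the 16 passed, and 0 had an unadjusted p under 0.05, against 11.4% of all genes. Their mean levels were 5.98, 6.00 and 6.10 in Amacr-/- and 6.22, 6.26 and 6.18 in wild-type arrays. Each Amacr-/- array thus lay below each wild-type array, as did 4 of the 16 genes singly, against 8.67% of all genes. Mean levels of the B and plasma cell markers were 6.75, 6.64 and 7.01 in Amacr-/- and 7.06, 7.50 and 6.87 in wild-type arrays, and overlapped. In that list Jchain, which joins secreted IgA, stood at 12.18, 12.17 and 12.47 in Amacr-/- and 12.93, 13.04 and 12.87 in wild-type arrays (-0.67, SE 0.44, adjusted p = 0.571). The part of such cells in the class II difference was not tested.

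Of 34 measured genes of peroxisomal oxidation and peroxisome assembly 16 were higher and 18 lower, with a median of -0.03. By limma Amacr was the 1 called, where 0.111% of all genes were. At an unadjusted p under 0.05 were 2, both lower, against 11.4% of all genes. Acox2, the oxidase that acts on bile acid intermediates directly after AMACR, stood at 8.90, 8.40 and 8.30 in Amacr-/- and 7.30, 7.56 and 8.65 in wild-type arrays (0.70, SE 0.34, adjusted p = 0.456), with wild-type replicate 3 inside the range of the knockout; the difference was 0.43 without wild-type replicate 1 and 1.10 without wild-type replicate 3. Pex26, which anchors the import machinery of peroxisomes, stood at 7.06, 6.79 and 6.82 in Amacr-/- and 7.57, 7.36 and 7.10 in wild-type arrays (-0.45, SE 0.17, adjusted p = 0.319).

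Of 14 measured genes of bile acid handling and its receptor FXR 11 were higher, 3 of them wholly above the wild-type arrays (8.02% of all genes), with a median of 0.13. By limma 0 passed, with 2 at an unadjusted p under 0.05, close to the 11.4% of all genes. Abcc2, an export pump of the brush border, stood at 11.84, 11.81 and 11.94 in Amacr-/- and 10.60, 10.94 and 11.69 in wild-type arrays (0.79, SE 0.41, adjusted p = 0.472). Slc51a, a subunit of the exporter at the base of the enterocyte, stood at 10.76, 10.94 and 11.06 in Amacr-/- and 10.48, 10.41 and 10.74 in wild-type arrays (0.38, SE 0.15, adjusted p = 0.345). Nr0b2, the FXR target SHP, differed by 0.67 (SE 0.28), with overlap, and by 0.33 without wild-type replicate 1. Slc10a2, the ileal importer, was dim here and differed by 0.12 (SE 0.23).

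Of 18 measured genes of cholesterol synthesis 12 were lower in Amacr-/- arrays of segment 1, with medians of -0.18, 0.14, 0.33 and 0.30 in segments 1 to 4. Without wild-type replicate 1 the median in segment 1 was -0.04, and without the 3 arrays that stood apart it was 0.00. By limma 0 passed in segment 1, with 3 at an unadjusted p under 0.05, against 11.4% of all genes. Cyp51, which removes a methyl group from lanosterol, differed by -0.57 (SE 0.28, adjusted p = 0.458), and by -0.13 without wild-type replicate 1. Sqle, squalene epoxidase, stood at 7.10, 7.16 and 7.21 in Amacr-/- and 8.47, 7.28 and 7.16 in wild-type arrays (-0.48, SE 0.29). For Sqle wild-type replicate 1 alone was high, and without it the difference was -0.06. Msmo1, a later enzyme of the same pathway, was higher without overlap, at 10.67, 10.58 and 11.04 in Amacr-/- and 9.83, 10.21 and 10.39 in wild-type arrays (0.62, SE 0.22, adjusted p = 0.315), and differed by 0.33 without both arrays high in pancreas genes. The sterol importer Npc1l1 differed by 0.10 (SE 0.16). Scarb1, a receptor of lipoproteins, stood at 8.45, 10.15 and 9.13 in Amacr-/- and 8.56, 7.91 and 8.62 in wild-type arrays (0.88, SE 0.34, adjusted p = 0.349), highest in the array high in stomach genes, and differed by 0.43 without it.

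Dgat2, which makes triglyceride in its last step, stood at 11.76, 11.88 and 12.14 in Amacr-/- and 10.67, 10.89 and 11.05 in wild-type arrays (1.06, SE 0.23, adjusted p = 0.0889). The gap between the genotypes was wider than the range of either, and in segments 2 to 4 the difference was 0.63, -0.02 and -0.09. The other 17 of the 18 measured genes of fat absorption lay between -0.13 (Plin2) and 0.11 (Sar1b). By limma 0 of the 18 passed, with 1, Dgat2, at an unadjusted p under 0.05, against 11.4% of all genes.

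In glutathione and NRF2 targets, 14 of 24 measured were higher and 10 lower (median 0.14). Without overlap, 2 lay above (8.02% of all genes) and 1 below (8.67%). By limma Gclc was the 1 called, where 0.111% of all genes were. At an unadjusted p under 0.05 were 5, 4 higher and 1 lower, against 11.4% of all genes. Gss, which completes glutathione, stood at 9.67, 10.02 and 9.75 in Amacr-/- and 9.61, 9.47 and 9.62 in wild-type arrays (0.25, SE 0.10, adjusted p = 0.350). Gclm, the regulatory partner of Gclc, differed by 0.20, and the NRF2 targets Nqo1, Txnrd1 and Srxn1 by 0.18, 0.00 and 0.15. Metallothioneins, which bind zinc, were high in Amacr-/- replicates 2 and 3: Mt1 stood at 10.12, 12.39 and 12.81 in Amacr-/- and 9.42, 10.76 and 10.26 in wild-type arrays, with Amacr-/- replicate 1 among the wild-type values. Mt2 differed by 2.41 (SE 0.89, adjusted p = 0.325), and by 1.99, 1.67 and 1.81 in segments 2 to 4. Leaving out 1 array of segment 1 gave 1.73 to 3.59. Without the 3 arrays that stood apart the difference was -0.39, which rests on Amacr-/- replicate 1 alone. That array stood at 8.33, against 11.65 and 12.05 in Amacr-/- replicates 2 and 3.

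Of 14 measured enterocyte markers 9 were higher and 5 lower, with a median of 0.04. Cdx2, the transcription factor that sets intestinal identity, stood at 6.79, 6.86 and 6.76 in Amacr-/- and 7.73, 7.83 and 7.69 in wild-type arrays (-0.95, SE 0.28, adjusted p = 0.219). Its arrays were tight within each genotype, and in a fit limited to the 6 segment 1 arrays it passed, while its differences in segments 2 to 4 were -0.42, -0.14 and 0.26. Carriers of sugars, peptides and amino acids were higher in 16 of 22, 5 without overlap (8.02% of all genes), with a median of 0.13. By limma 0 of the 22 passed, with 4 at an unadjusted p under 0.05, against 11.4% of all genes. Slc5a1, the sodium-glucose cotransporter, stood at 13.50, 13.49 and 13.63 in Amacr-/- and 13.24, 13.26 and 13.40 in wild-type arrays (0.24, SE 0.07, adjusted p = 0.183). Without the 2 arrays high in pancreas genes the median of these carriers was -0.08.

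Genes of dividing cells were lower in 23 of 26, with a median of -0.30. By limma 0 of the 26 passed, with 4 at an unadjusted p under 0.05, against 11.4% of all genes. Mki67 stood at 5.99, 7.03 and 8.34 in Amacr-/- and 9.07, 8.29 and 7.39 in wild-type arrays (-1.13, SE 0.52), a broad overlap in which wild-type replicate 1 was highest, and the median of the list was -0.10 without that array, -0.57 without wild-type replicate 3 and -0.47 without Amacr-/- replicate 3. Subunits of the respiratory chain were lower in 27 of 29, 9 of them wholly below the wild-type arrays (8.67% of all genes), with a median of -0.14. By limma 0 passed, with 4 at an unadjusted p under 0.05, close to the 11.4% of all genes. Ndufb10, of complex I, stood at 10.95, 10.94 and 11.10 in Amacr-/- and 11.34, 11.30 and 11.23 in wild-type arrays (-0.29, SE 0.11, adjusted p = 0.340). Their median was -0.07, -0.11 and -0.10 in segments 2 to 4.

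The stress response of the endoplasmic reticulum showed no common direction, with 11 of 26 measured genes higher, 15 lower and a median of -0.02. Dnajb9, a chaperone partner, stood at 11.34, 11.14 and 11.07 in Amacr-/- and 10.50, 10.42 and 10.78 in wild-type arrays (0.62, SE 0.17, adjusted p = 0.183), and Herpud1, of the degradation machinery, differed by 0.54 (SE 0.15, adjusted p = 0.183), also without overlap. By limma 0 of the 26 passed, with 3 at an unadjusted p under 0.05, close to the 11.4% of all genes.

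**Figure D5:**
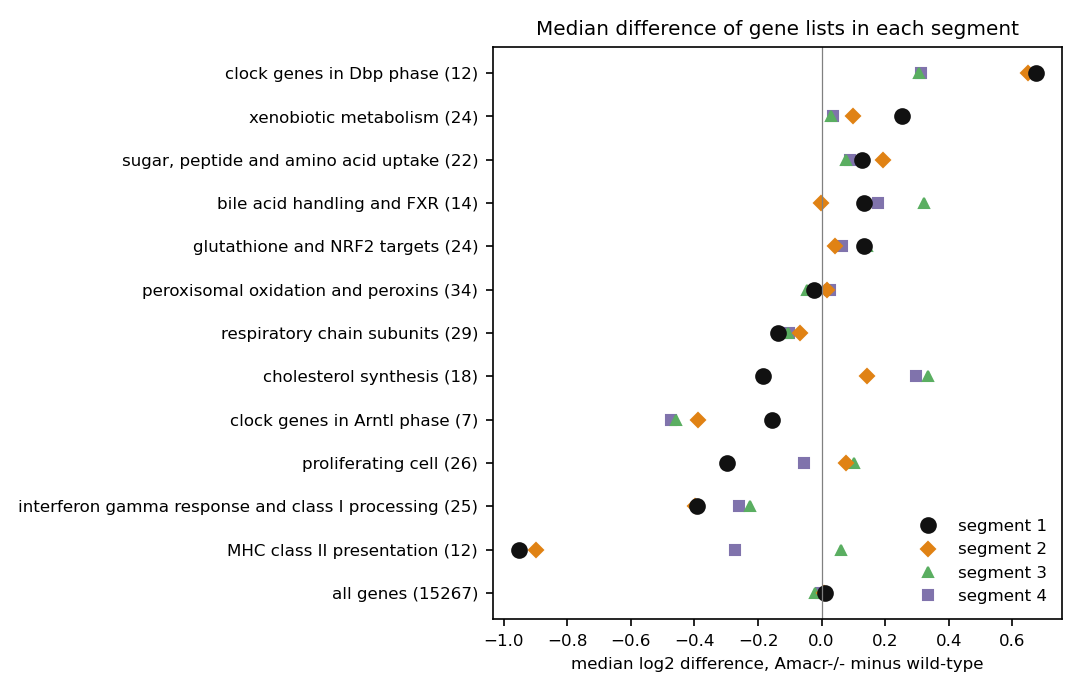
Median log2 difference, Amacr-/- minus wild-type, of gene lists (number of measured genes in brackets) and of all genes in segments 1 to 4. In segment 1 the clock genes in the phase of Dbp lie at 0.68 and MHC class II at -0.95, and cholesterol synthesis at -0.18, which is -0.04 without wild-type replicate 1.

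Among all genes without overlap between genotypes, the largest positive differences after Dbp and Ephx1 were those of Fkbp5 (1.30, SE 0.44), a target of glucocorticoids, Rab30 (1.28, SE 0.44), a Rab GTPase of the Golgi, Slc16a9 (1.21, SE 0.33), a carrier of the monocarboxylate family, and Mpp4 (1.20, SE 0.27). Fkbp5 stood at 9.10, 9.35 and 9.56 in Amacr-/- and 7.08, 8.85 and 8.17 in wild-type arrays, and its differences in segments 2 to 4 were 1.43, 1.15 and 1.28; without wild-type replicate 1 the difference in segment 1 was 0.83. The largest negative differences after Amacr, Slc34a2, H2-DMb1, Arntl and Bach2 were those of E2f2 (-1.21, SE 0.34), a transcription factor of dividing cells, and Dab1 (-1.18, SE 0.23, adjusted p = 0.0559), an adaptor of reelin signalling. Dab1 stood at 8.18, 7.52 and 7.05 in Amacr-/- and 8.86, 8.85 and 8.57 in wild-type arrays, and differed by -0.53 without the 3 arrays that stood apart. None of these 6 genes passed the adjusted threshold in the main fit. Dab1 was called in 5 of 19 alternative settings, among them both replicate blocks, and Mpp4 and Slc16a9 were called with array weights alone.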

How the data were processed

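The authors' deposited values are log2 signals of one-colour arrays. Per the submitters' processing notes they come from RMA, which equalizes signal distributions between arrays and compresses low signals. Neither its version nor the logarithm's base is given in the sources used here; folds assume base 2. Of 16556 probe sets 15270 name 1 gene, and keeping the brighter of duplicates left 15267 genes, with no filter on dim ones.

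All 24 arrays were fitted with limma 3.58.1 (R 4.3.3; lmFit, eBayes), 1 mean for each of 8 groups of genotype and segment (residual df 16, prior df 3.35), with Benjamini-Hochberg adjustment over all genes and calls at 0.05. The unadjusted p is limma's own. The labels call the samples biological replicates.

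The comparison, gene lists and markers were chosen with earlier results of these data known, so lists get counts and medians and no test. The naming rule took Amacr, called genes, the 15 largest differences without overlap in each direction, up to 6 members of a list by p, pancreas markers, genes far from their replicates in single arrays, and the 5 measured neighbours of Amacr on each side (RefSeq order). The rule left out called genes with only a clone or locus name. Other members, and D7Ertd443e, which is called and has such a name, were picked with their values in view. Alternatives left out arrays, added marker covariates or replicate blocks, renormalized, left out dim genes (mean under 6), or changed the variance model or the probe sets.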

Additional observations from a re-analysis of the deposited data

Results flagged for a closer look

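Elovl5, an elongase of polyunsaturated fatty acids, was separated between the genotypes in opposite directions in 2 segments. In segment 1 its level was 7.53, 7.51 and 7.66 in Amacr-/- and 8.31, 7.90 and 7.78 in wild-type arrays, a difference of -0.43 (SE 0.17, adjusted p = 0.345). In segment 4 the 3 Amacr-/- arrays lay above the 3 wild-type arrays, with a difference of 0.30. Segment 4 alone against segment 1 was not tested. For segment 1 minus the mean of segments 2 to 4, the adjusted p was 0.338. It was the 1 gene with this pattern among the genes that the naming rule took. Groups of 3 arrays are too small for a test of single outlying samples.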

How the results depend on the processing

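The difference of Amacr kept its direction and its call in all 19 alternative settings, ranging from -3.27 to -2.92, and Zfr was called in 18. No called gene changed sign. In segment 1, where 17 genes were called, leaving out 1 array gave 2 to 32 calls, the lowest without wild-type replicate 2 and the highest without knockout replicate 1. The count was 3 in a fit limited to segment 1, 2 without both arrays high in pancreas markers and 4 with the pancreas marker mean as a covariate. It was 10 after a renewed quantile normalization and 136 with array weights, among them all 17. Of the settings chosen after seeing the data, it was 2 without the 3 arrays high in pancreas or stomach markers and 3 with the stomach marker mean as a covariate. With the replicate number as a fixed block it was 26, including all 17, and with a random block for the assumed mouse 19. The labels state no pairing of the genotypes, and the deviations of same-numbered Amacr-/- and wild-type arrays correlated at -0.056, -0.237 and -0.135. Across segments, deviations of wild-type replicate 1 of segment 1 correlated with those of replicate 1 of segments 2 to 4 at 0.448, 0.387 and 0.398. Other same-numbered wild-type pairs ranged from -0.122 to 0.433, and Amacr-/- pairs from -0.17 to 0.127. Wild-type pairs of unlike number reached 0.355. Whether equal numbers mark the same mouse was not tested further. For segment 1 minus the mean of segments 2 to 4, leaving out 1 array gave 0 to 2 calls against 0. Settings that leave out arrays rest on fewer arrays by construction; otherwise the cause was not tested. The median changed sign in at least 1 setting for 22 of 44 lists, among them the exocrine pancreas (-0.14, against 0.23 without wild-type replicate 1), the Reg lectins (-0.17, against 0.23 without the 3 arrays), the xenobiotic list (-0.03 without wild-type replicate 1) and the uptake carriers (-0.08 without both pancreas-high arrays). Signals near the low end of the arrays limit the size of differences such as those of Adam2 and D7Ertd443e.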
